A study of Sus scrofa with 6 samples.

Results

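The Wnt modulators described here are 10 genes: the secreted antagonists *SFRP1*, *SFRP2*, *SFRP4*, *FRZB*, *DKK2* and *DKK3*, the ligands *WNT11* and *WNT16*, and the Frizzled receptors *FZD4* and *FZD7*. They were taken by symbol from the 30476 pig genes of the count table, and all 10 were found under 1 Ensembl identifier each. The list was selected on the counts of this same contrast, since *SFRP2* was picked for its clearly lower level in the UCP1 KI pigs, and the comparison between genotypes is given for these 10 genes as a description, without p values. Counts of them past the limits of the study are part of that description and are no test of the list. mRNA of the longissimus dorsi, a back muscle, was sequenced from 3 pigs with an adipocyte-specific UCP1 knock-in (UCP1 KI) and 3 wild-type (WT) pigs, all aged 6 months, with 1 library per pig. The study compared them to ask whether UCP1 expressed in fat cells goes along with changes in muscle. UCP1 itself, the mitochondrial protein of nonshivering thermogenesis, has no identifier under its symbol here, so the genotype was not checked against its counts. The counts on genes summed to between 30220951 and 35066624 per pig, and levels are given as CPM (counts per 1000000, with totals scaled by TMM). Where a gene had no count, up to 3 counts were taken as possible, or 0.0795 to 0.1096 CPM depending on the pig. The 20 most abundant genes held between 39.0% and 56.5% of the counts of a pig, with the highest share in WT replicate 2.

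Wnt proteins are secreted signals that bind Frizzled receptors at the cell surface, together with the co-receptors LRP5 or LRP6 in the branch that stabilizes beta-catenin. Secreted frizzled-related proteins (the SFRP genes and *FRZB*) carry a domain like that of Frizzled and bind Wnt proteins outside the cell, whereas DKK2 and related proteins of the Dickkopf family act on the co-receptors. In skeletal muscle, Wnt signals take part in the work of satellite cells, the muscle stem cells, and many of the secreted antagonists are known as products of fibroblasts and related cells of the connective tissue.

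Among the 10 genes, *SFRP2* and *SFRP4* were below all WT pigs and *FZD7* was above all WT pigs in each UCP1 KI pig. *SFRP2* differed by 6.42-fold, *SFRP4* by 2.13-fold and *FZD7* by 2.69-fold between the group means. The groups overlapped for the other 7 genes. Of the 9 genes with enough counts for the model, 3 (*SFRP2*, *SFRP4* and *FZD7*) were past both limits that the study set. These were a p under 0.05 and a log2 fold change beyond 0.5 in either direction, here from an edgeR fit of all genes. The study does not say whether its p was adjusted, and the p before adjustment was used here. Over all 13402 genes of the fit, 8.19% were past both limits, 4.34% lower and 3.84% higher in UCP1 KI pigs. Non-overlapping groups were found for 15.3% of them, with all UCP1 KI pigs lower for 7.69% and higher for 7.59%. Since the list was made with this contrast in view, nothing is read from the difference between these shares. Without UCP1 KI replicate 2, UCP1 KI replicate 3 or WT replicate 2 the count was 2 of 9, and the gene that left it was *SFRP4* each time. In these fits 4.92%, 8.33% and 5.19% of all genes were past both limits.

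**Figure D1:**
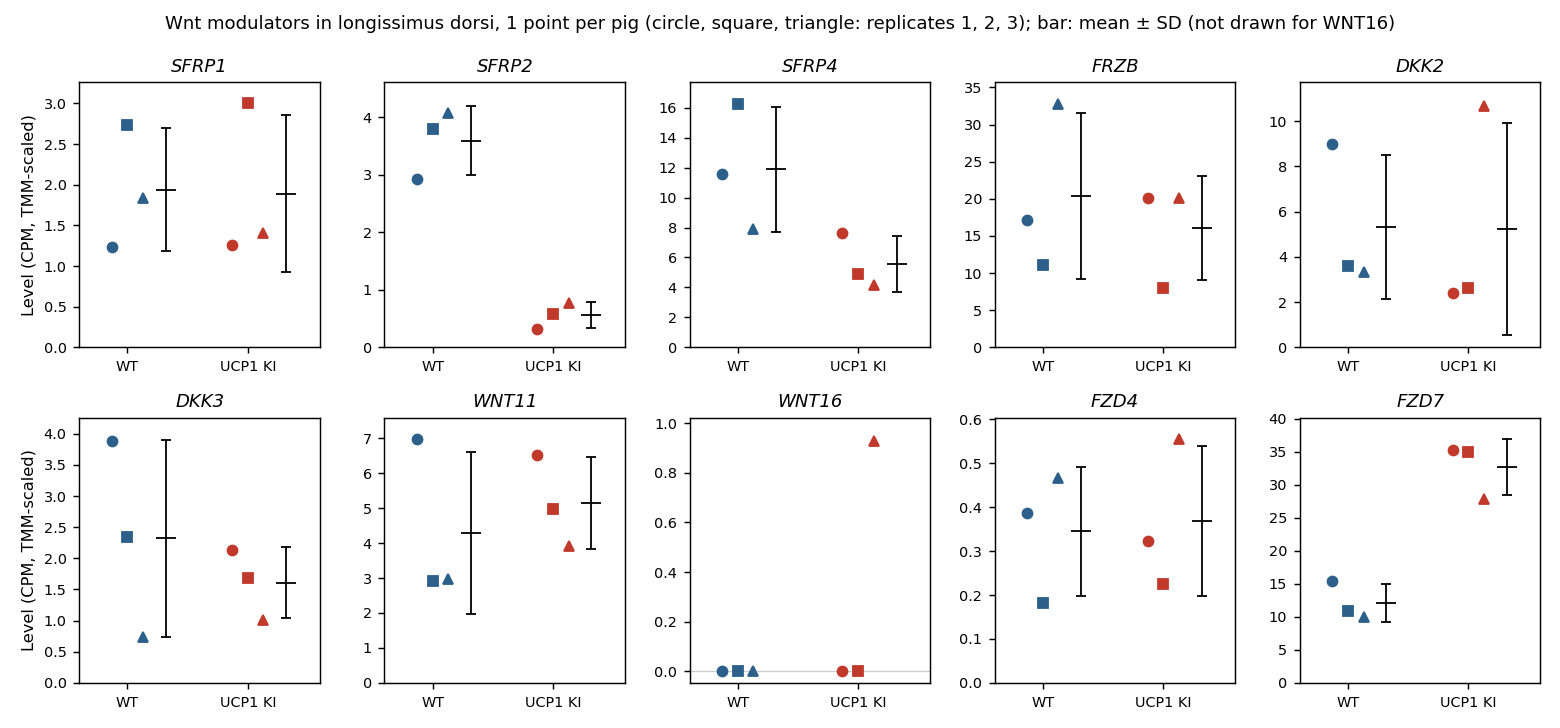
Levels of the 10 Wnt modulators in CPM scaled with TMM factors (y axis, a linear scale of its own for each gene), with 1 point per pig for 3 WT pigs (blue) and 3 UCP1 KI pigs (red) and the mean ± SD beside them. The UCP1 KI points of *SFRP2* and *SFRP4* lie below all WT points, those of *FZD7* lie above them, and *WNT16* was counted in 1 pig alone.

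*SFRP2* (ENSSSCG00000009004, chromosome 8, 75337311 to 75345926 in Sscrofa11.1) encodes a secreted frizzled-related protein. Its reads were counted 10, 21 and 29 times in UCP1 KI replicates 1 to 3 and 106, 104 and 122 times in WT replicates 1 to 3. Scaled to depth, these are 0.323, 0.589 and 0.768 CPM in UCP1 KI pigs and 2.92, 3.80 and 4.07 CPM in WT pigs. The highest UCP1 KI pig was thus far below the lowest WT pig, and each of the 6 libraries held more than 3 counts. UCP1 KI pigs had a mean of 0.560 ± 0.224 CPM (SD, n = 3), and WT pigs one of 3.60 ± 0.600 CPM (SD, n = 3). *SFRP2* had a log2 fold change of -2.67 (standard error 0.43), and 41 of the 13402 genes (0.306%) had a log2 fold change as low or lower. With each pig left out in turn it lay between -2.96 and -2.39. In bulk muscle, fewer cells that express a gene and less RNA of the gene per cell cannot be told apart.

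*SFRP4* (ENSSSCG00000035299, chromosome 9, 108404314 to 108414335), another secreted frizzled-related protein gene, was at 7.66, 4.88 and 4.16 CPM in UCP1 KI replicates 1 to 3 and at 11.6, 16.2 and 7.88 CPM in WT replicates 1 to 3. The groups came close to each other, since UCP1 KI replicate 1 was just under WT replicate 3. The UCP1 KI mean of 5.57 ± 1.85 CPM and the WT mean of 11.9 ± 4.18 CPM (SD, n = 3 each) gave a log2 fold change of -1.09 (standard error 0.37). It moved to -0.81 without WT replicate 2, the pig with the highest level, and to -1.39 without UCP1 KI replicate 1. A log2 fold change as low or lower was found for 637 genes (4.75%).

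The remaining antagonists had overlapping groups. *SFRP1* (ENSSSCG00000025822, chromosome 17, 10436414 to 10489773) was at 1.26, 3.001 and 1.40 CPM in UCP1 KI replicates 1 to 3 and at 1.24, 2.74 and 1.84 CPM in WT replicates 1 to 3. The highest value of each group was that of replicate 2, and the log2 fold change was -0.03 (standard error 0.49). *FRZB* (ENSSSCG00000016018, chromosome 15, 88332856 to 88377275), which encodes the secreted frizzled-related protein also called SFRP3, was at 20.1, 7.94 and 20.2 CPM in UCP1 KI pigs and 17.1, 11.102 and 32.7 CPM in WT pigs. Replicate 2 was the lowest pig of each group for *FRZB*, and the log2 fold change of -0.34 (standard error 0.49) became 0.19 without WT replicate 3.

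Both Dickkopf genes were uneven among pigs of the same genotype. *DKK2* (ENSSSCG00000032094, chromosome 8, 114862056 to 114974327) was at 2.39, 2.64 and 10.6 CPM in UCP1 KI replicates 1 to 3 and at 8.99, 3.62 and 3.34 CPM in WT replicates 1 to 3. One pig of each group, UCP1 KI replicate 3 and WT replicate 1, was thus well above the other pigs. The log2 fold change of -0.02 (standard error 0.67) became -1.09 when UCP1 KI replicate 3 was left out and 0.57 when WT replicate 1 was. In the RefSeq annotation the span of *DKK2* overlaps a locus named LOC110262177, and the strand setting of the counting is not given in the sources used here, so reads of the 2 loci may not be separated. *DKK3* (ENSSSCG00000013401, chromosome 2, 47385244 to 47444664), a divergent member of the family, was at 2.13, 1.68 and 1.01 CPM in UCP1 KI pigs and 3.89, 2.34 and 0.734 CPM in WT pigs. The UCP1 KI values lay inside the WT range, and the log2 fold change of -0.53 (standard error 0.61) became 0.06 without WT replicate 1. The summed level of 6 tenocyte (tendon cell) markers ran in the same order as *DKK3* within each genotype, at 82.0, 47.7 and 25.7 CPM in UCP1 KI replicates 1 to 3 and 101, 46.9 and 20.6 CPM in WT replicates 1 to 3. *THBS4* held most of the counts of this sum in each pig, *TNMD*, *SCX* and *COMP* had no count in at least 1 pig, and the part of these cells in the level of *DKK3* was not tested.

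The log2 fold changes of all 6 antagonists were below 0, as were those of 6876 of the 13402 genes of the fit. The median was -0.44 against -0.02 over all genes, and since *SFRP2* was picked for being lower, part of this difference is the choice itself. This common sign was not stable: it held for 4 of 6 with library size as the only scaling, where *SFRP1* was at 0.31 and *DKK2* at 0.21, for 5 of 6 with all genes with any count, and for 4 or 5 of 6 with any 1 pig left out. Scaling by library size alone moved the median over all genes to a log2 fold change of 0.24. *SFRP2* and *SFRP4* were at -2.36 and -0.85 under that scaling and so stayed below this median.

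Of the ligands, *WNT11* (ENSSSCG00000022347, chromosome 9, 10413182 to 10435158), which is known for signalling without beta-catenin, was at 6.53, 4.96 and 3.92 CPM in UCP1 KI replicates 1 to 3 and at 6.97, 2.92 and 2.97 CPM in WT replicates 1 to 3. The UCP1 KI values again lay inside the WT range. The log2 fold change was 0.26 (standard error 0.42) and 0.80 without WT replicate 1, the WT pig with the highest level. *WNT16* (ENSSSCG00000016617, chromosome 18, 25621802 to 25633730) was counted 35 times in UCP1 KI replicate 3 and 0 times in each of the other 5 pigs. It was left out of the model by the filter on low counts, and a difference between the genotypes cannot be read from 1 pig. With all genes with any count in the model it was past both limits (4 of 10 modulators, against 1360 of 20062 genes or 6.78% in that fit), on the counts of that 1 pig. In those 5 pigs a count of 0 allows a level of up to 0.0827 to 0.1096 CPM in WT pigs and up to 0.0841 and 0.0970 CPM in UCP1 KI replicates 2 and 1, which covers counting error only.

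*FZD7* (ENSSSCG00000016111, chromosome 15, 105644164 to 105648860), a Frizzled receptor known from satellite cells, was counted 1090, 1247 and 1053 times in UCP1 KI replicates 1 to 3 and 559, 300 and 301 times in WT replicates 1 to 3. These counts are 35.3, 34.98 and 27.9 CPM in UCP1 KI pigs and 15.4, 10.96 and 10.04 CPM in WT pigs. The lowest UCP1 KI pig was well above the highest WT pig. With means of 32.7 ± 4.17 CPM in UCP1 KI pigs and 12.1 ± 2.87 CPM in WT pigs (SD, n = 3 each), *FZD7* had a log2 fold change of 1.43 (standard error 0.26), and leaving out any 1 pig gave values from 1.31 to 1.63. A log2 fold change as high or higher was found for 264 genes (1.97%). *FZD4* (ENSSSCG00000014920, chromosome 9, 20714995 to 20721460), the receptor of Norrin in blood vessels, had few counts, 10, 8 and 21 in UCP1 KI replicates 1 to 3 and 14, 5 and 14 in the WT replicates. Its log2 fold change of 0.09 (standard error 0.65) became -0.33 without UCP1 KI replicate 3, and it is smaller than its standard error.

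**Figure D2:**
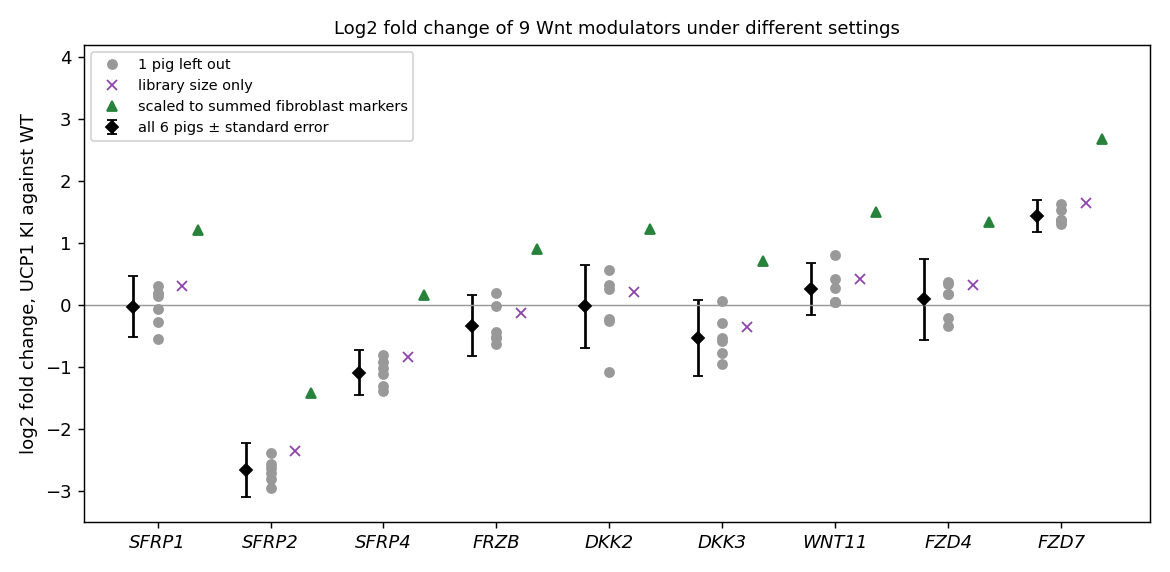
Log2 fold change, UCP1 KI against WT (y axis), for the 9 modulators in the model: with all 6 pigs (black, ± standard error), with 1 pig left out (grey), with library size as the only scaling (cross), and minus the log2 fold change of the summed fibroblast markers (triangle). *SFRP2* stays below 0 and *FZD7* above 0 in each of these, while the triangle of *SFRP4* lies at 0.15.

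The genes also differed in how evenly pigs of one genotype expressed them. The coefficient of variation (SD as a percent of the mean) of *FZD7* was 12.8% for UCP1 KI and 23.7% for WT, and that of *SFRP2* was 39.9% and 16.7%. For *DKK2* it was 89.9% and 59.9%, and for *DKK3* 35.3% and 68.0%. The medians over all genes of the fit were 24.9% for UCP1 KI and 29.2% for WT, though the coefficient also grows as counts become fewer. Over the 6 pigs, the log2(CPM + 1) values of *FZD7* and *SFRP2* had a Pearson correlation of -0.99. The deviations from the group means had one of -0.89, but this was not particular to *FZD7*, as it was -0.93 for *WNT11* and -0.83 for *DKK3*. For *SFRP4* and *SFRP2* the correlation was 0.71 over the 6 pigs and -0.58 for the deviations. These are descriptions over 6 libraries that share the genotype difference and the scaling.

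The genes whose log2(CPM + 1) followed *SFRP2* most closely over the 6 pigs were *CNST* (r = 0.99), *GEM* (0.99), *PP2D1* (0.98), *TRA2A* (0.98) and *ZNF566* (0.98), among 11294 genes with a symbol. For the deviations from the group means, the correlations with *SFRP2* were 0.81, 0.65, 0.56, 0.53 and 0.40. All 5 were lower in UCP1 KI pigs, with log2 fold changes from -0.57 for *CNST* to -4.04 for *PP2D1*, and the genotype difference is part of their likeness to *SFRP2*.

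The rest of the Wnt pathway was taken as 103 genes in 6 lists, of which 98 were found by symbol, 84 had any count and 66 had enough counts to be tested. Of these 66, 3 (4.55%) were past both limits, against 8.19% of all genes, with 1 higher and 2 lower in UCP1 KI pigs. Their median log2 fold change was -0.08. The groups did not overlap for 6 of the 66 with all UCP1 KI pigs lower and for 1 with all higher, against 7.69% and 7.59% of all genes. *GSK3B* (ENSSSCG00000011889), the kinase that marks beta-catenin for degradation, rose from a WT mean of 19.8 ± 7.54 CPM to a UCP1 KI mean of 38.0 ± 14.4 CPM (SD, n = 3 each), with overlap between the groups. In edgeR's quasi-likelihood test the log2 fold change of *GSK3B* was 0.94 (standard error 0.37) with an unadjusted p = 0.0353, which became 0.595 after Benjamini-Hochberg adjustment over all genes. *CTNNBIP1* (ENSSSCG00000036868), an inhibitor that binds beta-catenin, fell from 7.57 ± 1.62 to 4.58 ± 0.825 CPM (SD, n = 3 each), without overlap. Its log2 fold change was -0.73 (standard error 0.28, unadjusted p = 0.0353 and adjusted p = 0.595 from the same edgeR test). *NKD1* (ENSSSCG00000039875), a feedback inhibitor induced by beta-catenin, fell from 1.12 ± 0.143 to 0.508 ± 0.0722 CPM (SD, n = 3 each), with 15 to 21 counts per UCP1 KI library and 34 or 35 per WT library. Here the log2 fold change was -1.14 (standard error 0.43, unadjusted p = 0.0315 and adjusted p = 0.583 from the same edgeR test). After adjustment over all genes, 0 of the 66 genes had a p under 0.05 with edgeR (3 had one before adjustment) or with DESeq2. These 3 calls changed with the pigs included. With each of the 6 pigs left out in turn, *GSK3B* and *CTNNBIP1* passed both limits in 3 of 6 fits each and *NKD1* in 1 of 6, while the direction of each stayed in all 6. The count of 3 became 0 without UCP1 KI replicate 2, 6 without WT replicate 1 and 1 (*CTNNBIP1*) without WT replicate 2. Without WT replicate 3 the 2 calls were other genes, *LRP6* and *PRICKLE2*, and without UCP1 KI replicate 3 the 3 calls were *GSK3B*, *CCND1* and *CELSR2*. With library size only it was 2 (*GSK3B* and *PYGO1*). With the replicate number as a block the log2 fold changes of *GSK3B*, *CTNNBIP1* and *NKD1* were 0.94, -0.72 and -1.14, and none of the 3 passed.

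None of the tested genes passed both limits among the other ligands (0 of 6), the other Frizzled receptors and co-receptors (0 of 15), the other secreted and surface modulators (0 of 9) and the planar polarity genes (0 of 7). Of these other ligands, the 2 with the highest mean CPM, *WNT9A* and *WNT5B*, had log2 fold changes of 0.52 and -0.98, and *WNT5B* passed without WT replicate 1 (-1.36). *LRP5*, the co-receptor, was at 40.4 ± 10.1 and 33.5 ± 6.91 CPM (SD, n = 3 each), a log2 fold change of 0.27, and the Wnt receptor *RYK* was at 0.16. *RSPO3*, which enhances Wnt signals, ranged from 1.38 to 15.5 CPM in UCP1 KI pigs and from 2.27 to 17.3 CPM in WT pigs (log2 fold change 0.38, standard error 0.95). *GPC4*, a glypican of the cell surface, had a log2 fold change of -0.05, which was 0.25 with library size only. Of the 23 transducers in the cell, 2 were past both limits, *GSK3B* and *CTNNBIP1*, and those with the highest mean CPM were *DVL1* and *CSNK1A1*, at -0.08 and 0.03. *DVL1* was at 0.14 with library size only. The beta-catenin targets *MYC* and *CCND1* had log2 fold changes of -0.44 and 0.27, and *CCND1* passed both limits without UCP1 KI replicate 3 (0.70). *DAAM2* and *DAAM1*, formins of the planar polarity branch, were both at -0.36. Another secreted frizzled-related protein gene, *SFRP5*, was named after its values were seen. It was at 2.23, 3.03 and 3.63 CPM in UCP1 KI pigs and 2.67, 10.04 and 5.24 CPM in WT pigs, with overlap. Its log2 fold change was -1.01 (standard error 0.49), and it passed both limits when WT replicate 1 was left out. Among the other secreted and surface modulators, also named after the values were seen, the groups did not overlap for *DKKL1* (-1.26) and *WIF1* (-1.64), both lower in UCP1 KI pigs. *PORCN* (0.49) was higher without overlap. *DKKL1* and *WIF1* had at most 35 and 37 counts in a pig. *DKKL1* passed both limits with DESeq2 and without UCP1 KI replicate 1.

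**Figure D3:**
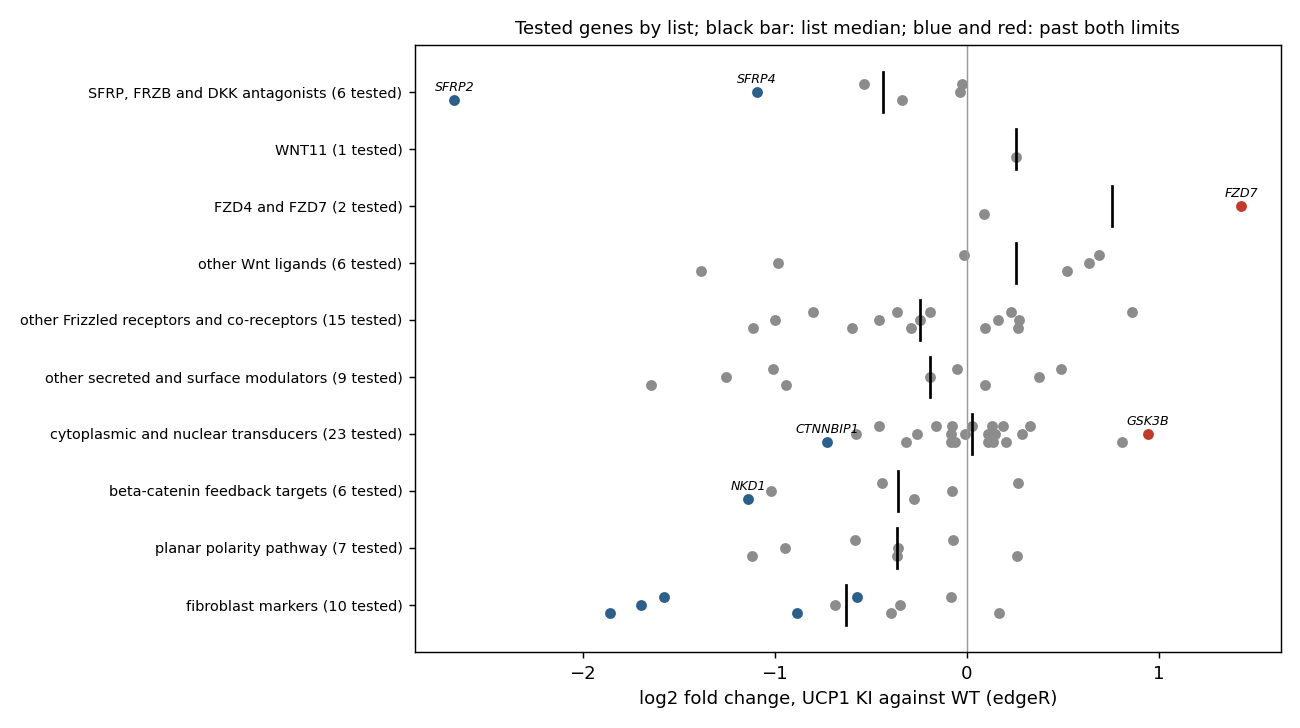
Log2 fold change, UCP1 KI against WT (x axis), of each tested gene (point) in the lists of Wnt genes and of fibroblast markers, with the list median as a black bar and genes past both limits in red (higher in UCP1 KI) or blue (lower). *SFRP2* has the lowest value in the plot at -2.67, *FZD7* the highest at 1.43, and 5 of the 10 fibroblast markers are blue.

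Some markers of connective tissue were also lower where *SFRP2* and *SFRP4* were. Of 10 fibroblast markers, 5 passed both limits, all lower in UCP1 KI pigs (*COL1A1*, *COL1A2*, *COL3A1*, *LUM* and *PDGFRL*), against 4.34% of all genes, and 5 did not pass. After adjustment over all genes 0 of 10 passed with edgeR, where the smallest adjusted p was 0.280, and the list was chosen with earlier results of these data known. The median log2 fold change of the list was -0.63, and none of its genes was at 0 in any pig. Their summed level ranged from 288 to 474 CPM in UCP1 KI pigs and from 781 to 1246 CPM in WT pigs, without overlap. *COL1A1*, *COL1A2* and *COL3A1* held most of this sum in each pig but UCP1 KI replicate 2. *COL3A1* alone had means of 138 CPM in UCP1 KI pigs and 412 CPM in WT pigs, so the sum follows collagen mRNA to a large part. The 3 collagens had log2 fold changes from -1.86 to -1.57, whereas *PDGFRA*, a surface receptor, and *DPT*, a small matrix protein, were at -0.08 and 0.17. Per 1000 counts of the 10 markers, *SFRP2* had 0.693, 2.04 and 1.62 counts in UCP1 KI replicates 1 to 3 and 3.30, 3.05 and 5.21 in WT replicates 1 to 3. *SFRP2* was thus still lower in every UCP1 KI pig on this scale, by 2.65-fold between the means. *SFRP4* had 16.4, 16.9 and 8.78 counts per 1000 marker counts in UCP1 KI replicates 1 to 3, against 13.03, 13.01 and 10.1 in the WT replicates, and the groups overlapped. With the log2 fold change of the summed list taken off, *SFRP2* was at -1.42 and *SFRP4* at 0.15. With the collagens left out of the sum, an alternative chosen after the values were seen, they were at -2.26 and -0.69. The part of connective tissue content in these differences was not tested.

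**Figure D4:**
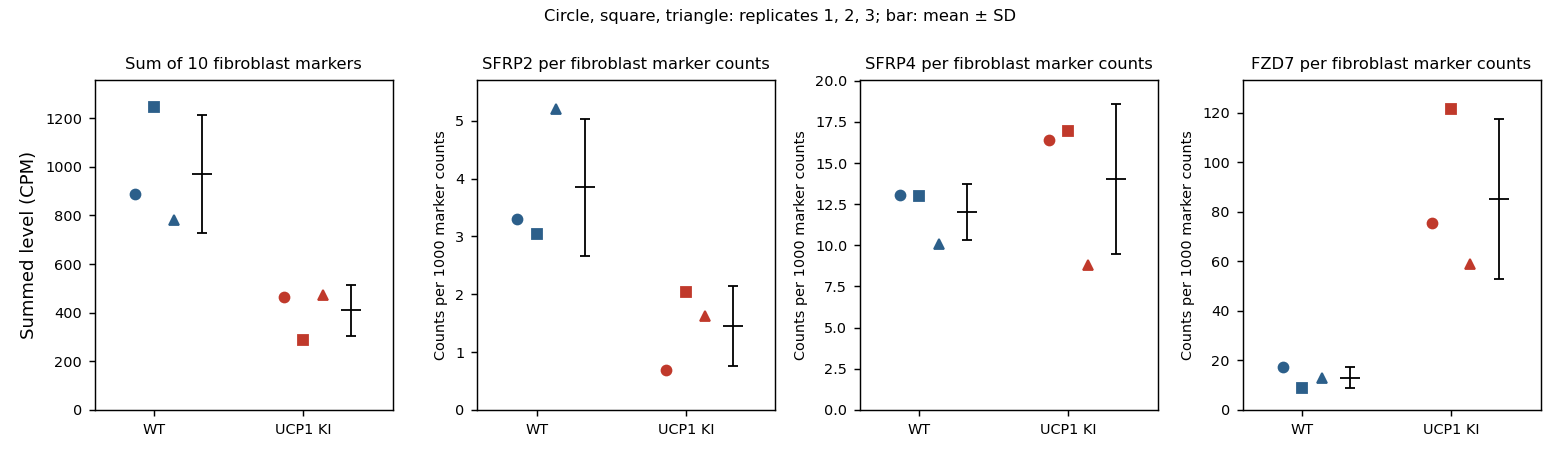
The summed level of 10 fibroblast markers in CPM (left panel) and the counts of *SFRP2*, *SFRP4* and *FZD7* per 1000 counts of these markers (other panels, y axis), with 1 point per pig and the mean ± SD. *SFRP2* stays lower in each UCP1 KI pig (0.693 to 2.04 against 3.05 to 5.21), *SFRP4* overlaps, and *FZD7* is higher (58.9 to 121 against 8.79 to 17.4). The lower marker sum of UCP1 KI pigs raises every gene on this scale. *SFRP1*, *WNT11* and *FZD4* (not drawn), whose groups overlapped in CPM, were also higher in each UCP1 KI pig on it.

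Other cell types gave values beside *FZD7* and *FZD4*. The summed level of 4 satellite cell and myogenic markers ranged from 86.8 to 143 CPM in UCP1 KI pigs and from 39.6 to 107 CPM in WT pigs, with 0 of 4 past the limits. *MYOG*, a regulator of differentiating muscle cells, held most of this sum in each pig (88.6 and 54.4 CPM in the mean of UCP1 KI and WT pigs), whereas *PAX7*, the marker of the stem cells, was at 2.19 ± 0.960 and 3.07 ± 1.0497 CPM (SD, n = 3 each), with overlap. The log2 fold changes of *MYF5* (0.47), *MYOD1* (0.27) and *MYOG* (0.70) were above 0 and that of *PAX7* (-0.49) below it, and none passed. The part of these cells in the level of *FZD7* was not tested. Of the 5 endothelial markers found, 1 passed both limits (*TEK*, higher), and their sums overlapped, at 304 to 552 and 271 to 518 CPM. The sums also overlapped between the genotypes for markers of tenocytes, adipocytes, smooth muscle and pericytes, Schwann cells and leukocytes. In these lists 1 of 2 tested markers of tenocytes (*FMOD*, lower), 0 of 5 of adipocytes, 1 of 5 of smooth muscle and pericytes (*NOTCH3*, lower), 0 of 3 of Schwann cells and 1 of 5 of leukocytes (*CD3E*, higher) passed both limits. All 5 tested adipocyte markers and all 5 smooth muscle and pericyte markers had log2 fold changes below 0, with medians of -1.13 and -0.87, and their summed means were 53.7% and 61.6% of those in WT pigs. The adipocyte sums ranged from 60.6 to 208 CPM in UCP1 KI pigs and from 70.9 to 362 CPM in WT pigs, with the highest in WT replicate 2. Those of smooth muscle and pericytes ranged from 254 to 344 and from 301 to 668 CPM, with the highest in WT replicate 1. All 5 leukocyte markers and all 5 endothelial markers found had log2 fold changes above 0, with medians of 0.50 and 0.15, and their summed means were 139% and 113% of those in WT pigs. The leukocyte sums ranged from 17.8 to 49.4 CPM in UCP1 KI pigs and from 17.1 to 33.2 CPM in WT pigs. None of the markers found by symbol was at 0 in all pigs. The muscle label was met by *ACTA1*, *CKM* and *TNNT3*, the 3 fibre markers found of 8, which summed to between 47521 and 94095 CPM.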

How the data were processed

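Longissimus dorsi RNA from 3 UCP1 KI and 3 WT pigs was analysed. The table the authors deposited holds raw, whole-number counts for Ensembl pig genes, not normalized, with 1 column per pig. Per the submitters' processing notes and the study's methods, reads were trimmed with Trimmomatic 0.36 and mapped with HISAT2 2.0, on the build Sscrofa11.1, and expression values of transcripts were computed with StringTie 1.3.3b. The annotation release, and which program wrote the count table, are not given in the sources used here. Symbols came from a table of Ensembl gene names, and coordinates from RefSeq for Sscrofa11.1, joined by symbol.

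Counts were fitted in R 4.3.3 with edgeR 4.0.16 (filterByExpr, TMM factors, quasi-likelihood test, genotype as the only term). Genes past both limits had a p under 0.05 before adjustment and a log2 fold change beyond 0.5 in either direction. The standard error is the log2 fold change divided by the square root of F. CPM used TMM-scaled totals of the genes kept, and log2(CPM + 1) was used for correlations. p values cover the spread between these pigs.

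Named were the 10 modulators, pathway genes past both limits, the 2 tested genes with the highest mean CPM in each pathway list, and the 5 genes most like *SFRP2*. The modulators and lists were chosen with earlier results of these data known. Alternatives were median-of-ratios factors, library size only, 2 other filters, DESeq2 1.42.0, a replicate block, each pig left out, an adjusted p, and scaling to fibroblast markers. The code was tested on simulated data. Same-numbered pigs had deviations from their group means correlated at 0.00, 0.09 and 0.28. Between differently numbered pigs of the 2 genotypes these correlations ranged from -0.20 to 0.13. The labels do not say whether the numbers mark pairs or a shared batch, and the main fit did not take them as pairs. Sequences were not analysed here.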

Additional observations from a re-analysis of the deposited data

How the results depend on the processing

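*SFRP2*, *SFRP4* and *FZD7* kept their direction with median-of-ratios factors, library size only, both other filters, DESeq2, the replicate block and each pig left out, and with the replicate block they were at -2.73, -1.08 and 1.45. With each pig left out, *SFRP2* lay between -2.96 and -2.39, *SFRP4* between -1.39 and -0.81, *FZD7* between 1.31 and 1.63, *SFRP1* between -0.55 and 0.30, *FRZB* between -0.64 and 0.19, *DKK2* between -1.09 and 0.57, *DKK3* between -0.95 and 0.06, *WNT11* between 0.04 and 0.80, and *FZD4* between -0.33 and 0.36. With the fibroblast marker sum taken off, the log2 fold changes were 1.21 for *SFRP1*, -1.42 for *SFRP2*, 0.15 for *SFRP4*, 0.91 for *FRZB*, 1.22 for *DKK2*, 0.71 for *DKK3*, 1.504 for *WNT11*, 1.33 for *FZD4* and 2.68 for *FZD7*. This scaling adds the same amount to each gene, and *SFRP1*, *SFRP4*, *FRZB*, *DKK2* and *DKK3* changed sign under it. Without the collagens in the sum, *FZD7* was at 1.83.

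The number of other pathway genes past both limits was 1 (*CELSR2*) with the replicate block, lay between 0 and 6 with a pig left out, and was 0 at an adjusted p. The labels do not say whether the numbers pair the pigs, and the block gave 1114 genes past both limits in place of 1097. Over all genes, the number lay between 678 and 1541 with a pig left out. UCP1 KI replicate 2 gave the lowest number when left out, WT replicate 2 gave 718, and WT replicate 3 the highest. With library size only, 82.7% of the genes past both limits were higher in UCP1 KI pigs, in place of 46.9%. DESeq2 gave 1309 such genes, and 127 at an adjusted p under 0.05, where edgeR gave 0 (1100 before adjustment).

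Of the 12 pathway genes named for their mean CPM, the only ones recomputed singly among those not past the limits, *GPC4* and *DVL1* changed sign with library size only (0.25 and 0.14), and *GPC4* and *CCND1* with the replicate block (0.031 and -0.0065). With a pig left out, the range was -0.045 to 0.74 for *WNT9A*, -0.063 to 1.62 for *RSPO3*, -0.34 to 0.24 for *GPC4*, -0.23 to 0.17 for *DVL1*, -0.16 to 0.17 for *CSNK1A1* and -0.20 to 0.70 for *CCND1*. *GSK3B*, *CTNNBIP1* and *NKD1* kept their log2 fold changes with the replicate block (0.94, -0.72 and -1.14) but were not past the limits. With library size only, *CTNNBIP1* (-0.50) and *NKD1* (-0.86) were not past them either, nor was *NKD1* with all genes with any count (-1.12). The causes were not tested. *FZD4* and *WNT16* had at most 21 and 35 counts in a pig, and the part of depth in their spread was not tested.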
